A study of Mus musculus with 16 samples.

Results

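The translation machinery of the mouse was taken here as 191 genes, chosen by name. Of these, 86 are ribosomal proteins (symbols Rpl or Rps with a number, and Rplp). Eif symbols give 48 genes, the initiation factors and genes named after them, all called initiation factors below. They also give 8 kinases or binding proteins of initiation factors. Eef symbols give 15 genes, the elongation factors and genes named after them. The rest are 17 cytosolic and 17 mitochondrial aminoacyl-tRNA synthetases (symbols ending in ars or ars2). All 191 were followed through 8 deposited lists of THOC5 RNA immunoprecipitation (RIP) peaks from primary mouse vascular smooth muscle cells. A peak is a position where RNA recovered with THOC5, a subunit of the mRNA export complex THO, was called as enriched. Of the 191 genes, 39 (20.4%) held a peak in at least 1 list, against 3947 of 21900 protein-coding genes (18%) in RefSeq, and 4051 genes of any kind were bound in at least 1 list. A gene is called bound in a list where a peak lies inside the transcript that the authors' annotation gives for that peak.

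Ctrl cells were wild type and kept in growth medium, and Pi cells were wild type and kept in osteogenic medium, which drives the cells towards mineralisation. GFP OE cells, labelled wild type, and THOC5 OE cells, labelled with THOC5 overexpression, were both in osteogenic medium, and each of the 4 conditions has 2 lists. The Ctrl and Pi lists are called unmodified below and the GFP OE and THOC5 OE lists overexpression lists. Neither the vector used for overexpression nor whether the lists of a condition came from separate cultures is given in the sources used here, so the spread between them may be technical. The 8 input samples were not analysed here.

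Ribosomal proteins and rRNA form the 40S and 60S subunits. Initiation factors bring the small subunit to the capped mRNA and its start codon, elongation factors carry the ribosome along the message, and synthetases charge tRNAs with amino acids. The mRNAs of ribosomal proteins and of several translation factors typically begin with a run of pyrimidines at the cap, the terminal oligopyrimidine or TOP motif, which LARP1 binds and through which mTOR signalling controls their translation. Other kinases act on the factors themselves: GCN2, encoded by Eif2ak4, phosphorylates eIF2 when amino acids are scarce, and 4E-binding proteins hold back the cap-binding protein.

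To show the start of the transcripts that the results turn on, 40 bases around the start site are printed 5′ to 3′ on the transcript's strand, from 10 bases before the start to 30 from the start on. They come from RefSeq, build GRCm38.p6, and capitals mark the longest run of at least 8 bases that are all C or T. The first 4 are ribosomal protein genes, bound mainly in unmodified lists; Lars2 was bound in osteogenic medium; Eif4g3 and Cars2 were bound in every list.
Rps26: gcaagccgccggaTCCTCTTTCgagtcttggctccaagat
Rpl26: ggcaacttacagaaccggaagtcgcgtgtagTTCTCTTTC
Rpl35: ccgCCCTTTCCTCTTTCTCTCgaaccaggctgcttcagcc
Rplp0: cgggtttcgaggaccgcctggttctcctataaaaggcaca
Lars2: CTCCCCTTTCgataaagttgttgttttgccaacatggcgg
Eif4g3: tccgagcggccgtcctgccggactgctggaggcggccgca
Cars2: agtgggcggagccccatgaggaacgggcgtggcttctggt
The windows lie at chr10:128626477-128626516 (minus strand) for Rps26, chr11:68901556-68901595 (plus) for Rpl26, chr2:39005102-39005141 (minus) for Rpl35, chr5:115559457-115559496 (plus) for Rplp0, chr9:123366917-123366956 (plus) for Lars2, chr4:137993445-137993484 (plus) for Eif4g3 and chr8:11550742-11550781 (minus) for Cars2.

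Such a run of C or T was searched on the transcript's strand only. A gene with several annotated starts has several windows, and its longest run was taken. The run was found in 29 of the 66 ribosomal protein genes that RefSeq's table holds (43.9%) and in 18 of 79 other translation genes (22.8%). Numbers of starts were not matched between groups. Over all protein-coding genes it was in 2864 of 17492 (16.4%). The run is longest, at 18 bases, in Rpl35, and Rps26 and Rpl26 each have 9. Rplp0, Eif4g3 and Cars2 have none of 8 bases or more in this window. Of the bound ribosomal protein genes not printed, Rpl6, Rpl36a, Rps23 and Rps27l have none either, with longest runs of 6, 5, 6 and 7. A marked run need not lie at the cap. The Lars2 run lies wholly before the annotated start and the Rpl26 run at the end of the window, and either may continue beyond it. That of Rps26 begins after the start, and only that of Rpl35 spans it. The match describes the surroundings of the annotated start and says nothing of a factor or of where THOC5 bound. The 16 peaks in ribosomal protein genes were all annotated to introns, downstream of these windows.

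Over the lists, 11 and 14 of the translation genes were bound under Ctrl, 17 and 14 under Pi, 12 and 10 under GFP OE, and 13 and 10 under THOC5 OE. As a share of all genes bound in a list this was 0.859% and 0.669% in the Ctrl lists, 1.1% and 0.732% in the Pi lists, 0.843% and 0.812% in the GFP OE lists, and 0.788% and 0.592% in the THOC5 OE lists, with a mean of 0.8% ± 0.152 (SD, n = 8 lists). The shares overlapped between every pair of conditions except GFP OE and THOC5 OE, where both GFP OE lists were the higher. The composition by role differed from list to list: initiation factors and synthetases were present in every list, whereas ribosomal proteins were bound in 3, 3, 5 and 3 genes in the unmodified lists and in 2, 0, 0 and 0 genes in the overexpression lists. Of the 39 genes, 4 (10.3%) were bound in all 8 lists, namely Eif4g3, Eif2ak4, Lars and Cars2, against 400 of all 4051 bound genes (9.87%), and 18 (46.2%) were bound in 1 list only, against 37.2%.

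**Figure D1:**
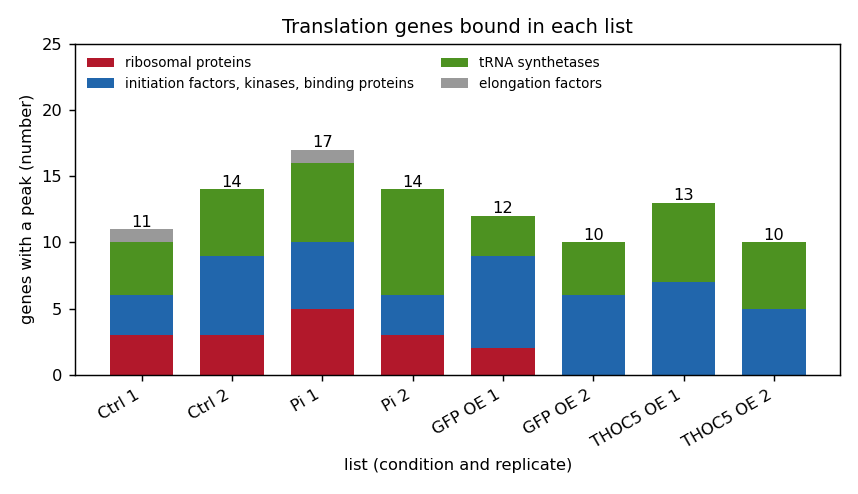
Number of translation genes with a peak in each of the 8 THOC5 RIP lists, stacked by role, with the total above each bar. The totals run from 10 to 17 genes, and the ribosomal protein segment is missing from GFP OE 2 and from both THOC5 OE lists. With other assignments of peaks to genes, some of these lists did hold such genes.

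The lists themselves differ in ways that touch every count. They hold 2572 to 4795 peaks and 1231 to 2093 bound genes each, and within a list all peaks share a width, which is 415 bp in the narrowest and 553 bp in the widest. Reads were not analysed here, so the depth behind a peak is unknown, and a gene without a peak is not shown to be unbound. Peaks on repeats annotated as rRNA numbered 0 and 1 in the Ctrl lists, 17 and 28 in the Pi lists, and 0 in each overexpression list, although the RNA was depleted of rRNA. None of the 166 peaks in translation genes lay on such a repeat or on a small RNA gene of RefSeq. As a check of the cell type, peaks lay in 5 of 8 smooth muscle marker genes, in 0 of 5 endothelial and 0 of 5 leukocyte markers, and in 2 of 5 fibroblast markers, Col1a2 and Pdgfra, both in Pi 1 only. Of the smooth muscle markers, Mylk, the myosin light chain kinase, was bound in all 8 lists, at percentiles 36.5 and 38.5 in GFP OE and from 80.4 to 92.1 in the other conditions. Acta2 was bound in 3 lists, Smtn in 2, and Lmod1 and Tagln in 1 each, all unmodified, which makes 7 pairs of a gene and a list in the unmodified lists and 0 in the overexpression lists. Myh11, Cnn1 and Myocd had no peak. A peak shows recovery with THOC5 and not the level of an RNA.

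Each peak carries a score from the authors' caller, on a scale that the sources used here do not state. A peak is therefore placed by its percentile among the scores of its own list, where 100 is the highest, and the gene takes its best peak. A difference in percentile between lists of unequal length shows no change by itself. The median best percentile of the bound translation genes was 31.7 and 49.3 in the Ctrl lists, 65.6 and 57.4 in the Pi lists, 45.0 and 63.4 in the GFP OE lists, and 64.6 and 69.8 in the THOC5 OE lists. That of all bound genes was between 50.2 and 53.9 in every list.

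**Figure D2:**
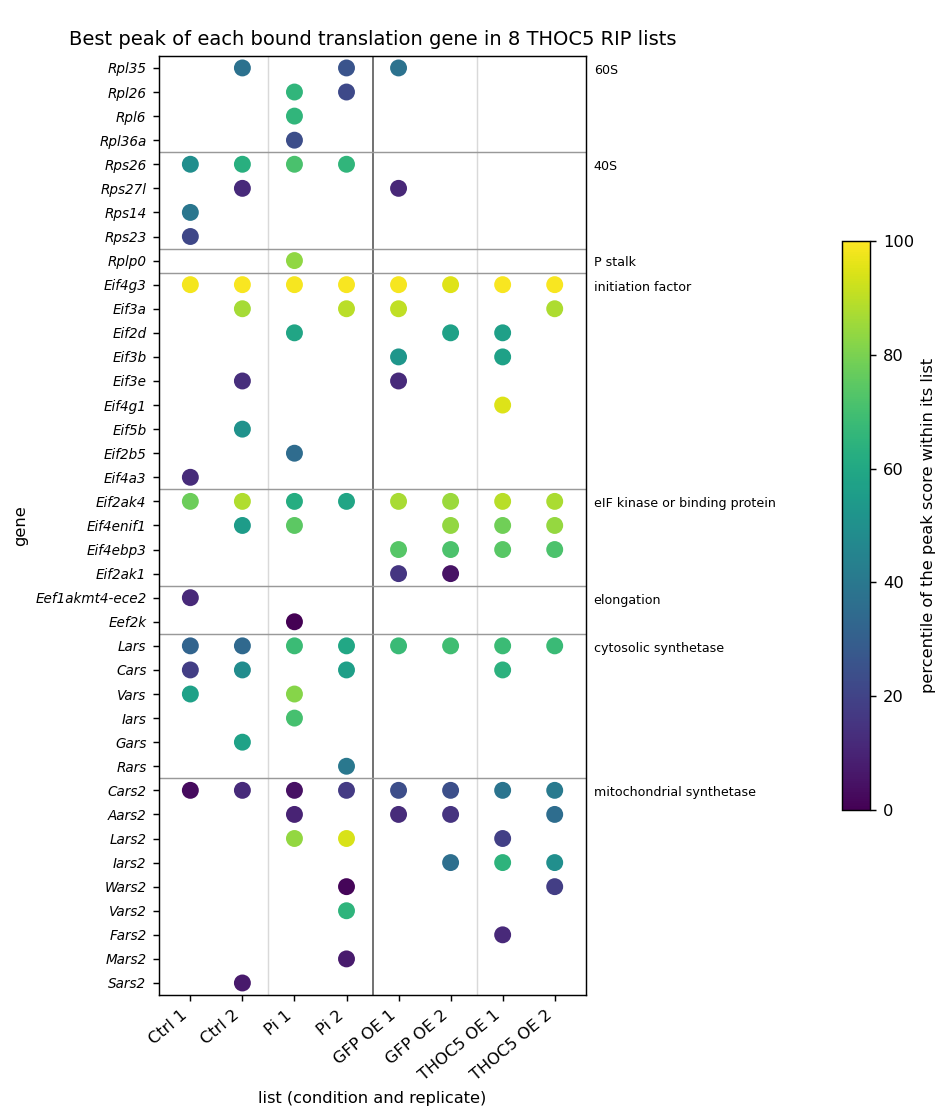
Best peak of each of the 39 bound translation genes (vertical axis, grouped by role) in each list (horizontal axis); colour gives the percentile of the peak score within its list, and an empty cell means no peak. Eif4g3 is near the top of every list, Rps26 fills the 4 unmodified columns and Eif4ebp3 the 4 overexpression columns.

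Ribosomal protein genes were seldom bound: 4 of 51 genes for 60S proteins, 4 of 32 for 40S proteins and 1 of 3 for the P stalk, 9 of 86 in all (10.5%). Their 16 peaks were all annotated as intronic. The genes are short, with a median span of 3169 bp against 17146 bp for all protein-coding genes, and the share of genes bound rises with span over the 8 lists together. Among genes under 5 kb, 9 of 71 ribosomal protein genes were bound (12.7%), against 102 of 5047 protein-coding genes (2.02%). Among the 15 ribosomal protein genes of 5 to 20 kb none was bound, against 691 of 6814 protein-coding genes (10.1%). Of the other translation genes, 2 of 12 under 5 kb (16.7%), 6 of 45 of 5 to 20 kb (13.3%), 12 of 32 of 20 to 50 kb (37.5%), 8 of 13 of 50 to 100 kb (61.5%) and 2 of 3 above 100 kb (66.7%) were bound.

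**Figure D3:**
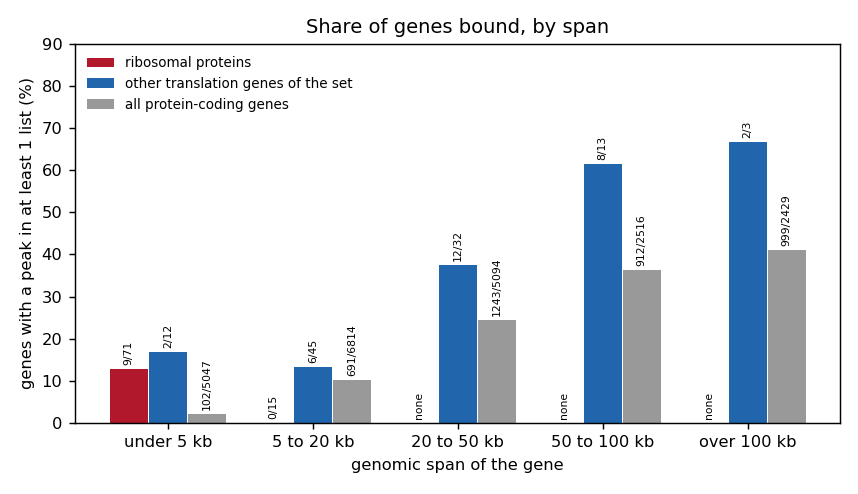
Share of genes with a peak in at least 1 list (percent, vertical axis) by the genomic span of the gene (horizontal axis) for ribosomal proteins, the other translation genes and all protein-coding genes; the numbers above the bars are bound genes over all genes. The share climbs with span from 2.02% to 41.1% for protein-coding genes, and bound ribosomal protein genes are all under 5 kb.

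Rps26, a 40S protein at the mRNA exit channel, was the ribosomal protein gene bound in the most lists. Its best peak stood at percentile 49.1 and 63.2 in Ctrl and 71.2 and 65.6 in Pi, and it had no peak in either GFP OE or either THOC5 OE list. The unmodified and overexpression lists thus did not overlap for this gene. Across all 4051 bound genes, 28 (0.691%) were bound in the 4 unmodified lists and in no overexpression list, and Rps26 was the 1 translation gene of 39 among them. The gene lies at chr10:128624529-128626506 (mm10). In Ctrl 1, Ctrl 2 and Pi 2 the peak was in intron 3 of 3, around chr10:128624736-128625179, on a simple repeat, and in Pi 1 it was in intron 2 of 3, at chr10:128625445-128625998, on a SINE. All 4 Rps26 peaks thus lay on annotated repeats, as did 13 of the 166 translation gene peaks. The part of the repeats in this difference was not tested.

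Rpl26, a 60S protein also known to bind the p53 mRNA, was bound in both Pi lists, at percentiles 65.6 and 21.9, and in no other list. Both peaks were in intron 2 of 3, at chr11:68902538-68903091. Rpl35, which lies near the exit of the peptide tunnel, was bound at percentile 37.2 in Ctrl 2, at 26.1 in Pi 2 and at 37.7 in GFP OE 1, in intron 2 of 3 each time. Rps27l, a paralogue of Rps27, was bound weakly in Ctrl 2 (12.0) and GFP OE 1 (11.2).
The other 5 were bound in 1 list each. Rplp0, the base of the P stalk that recruits elongation factors, stood at percentile 83.3, Rpl6 at 65.6 and Rpl36a at 23.7, all in Pi 1. Rps14, of the 40S platform, stood at 39.1 and Rps23, of the decoding centre, at 21.3, both in Ctrl 1. Pi 1, which holds 3 of these 5, is also the list that alone had peaks in fibroblast markers, 2 of 5, and the part of other cells in these peaks was not tested.

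Counted as pairs of a ribosomal protein gene and a list, 14 pairs were in unmodified lists and 2 in overexpression lists, both of these in GFP OE 1. They were 0.205% and 0.0334% of the pairs of all bound genes in those lists. Of the 9 genes, 8 were bound in more unmodified than overexpression lists, where 48.8% of all bound genes were. The smooth muscle markers other than Mylk moved with this split, with 7 pairs in unmodified and 0 in overexpression lists, and their part in the ribosomal protein count, Rps26 included, was not tested. Short genes in general lean the same way: of 91 bound protein-coding genes under 5 kb outside the translation set, 73 were bound in more unmodified lists, with 104 pairs against 28. They differ in the label of the peaks, since 13.5% of the 133 peaks in those short genes were annotated as intronic. The annotation gives 1 label per peak, and overlapping peaks can differ in it, as in Eif4ebp3. A peak labelled intronic in a short gene may also cover exon bases, which was not examined, and intron numbers were not matched. With peaks at or above the median score of each list the pairs were 6 and 0, and with every list cut to the 2572 best peaks they were 10 and 1. Assigning peaks to the nearest gene of the annotation gave 33 and 9, with 4, 1, 2 and 2 genes in the overexpression lists. Assigning them to the gene span that holds the peak centre gave 19 and 5, with 3, 1, 1 and 0 genes there. The span setting adds Rpl32, bound in both GFP OE lists and in neither Pi list. The lack of ribosomal protein peaks in GFP OE 2 and THOC5 OE thus depends on how peaks are assigned to genes. Restricting to exons and UTRs left no ribosomal protein peak in any list. No peak of any list, intergenic peaks included, overlapped any of the 315 pseudogenes with a ribosomal protein symbol in RefSeq.

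Initiation factors were bound in 9 of 48 genes (18.8%), with 65 peaks, and 50 of these were in Eif4g3. Eif4g3 encodes eIF4G3, a scaffold that joins the cap-binding protein, the helicase eIF4A and the poly(A)-binding protein, and was bound in all 8 lists. Its best peak scored 728.9 and 765.7 in the Ctrl lists, 769.4 and 725.6 in the Pi lists, 730.1 and 407.9 in the GFP OE lists, and 946.7 and 996.4 in the THOC5 OE lists. Within the lists this was percentile 98.2, 98.9, 98.7, 98.9, 98.5, 95.0, 99.0 and 99.1 in the same order. Eif4g3 was thus among the highest scores of every list, with GFP OE 2 the lowest.

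The 50 peaks fall on 16 sites along the gene, which spans 215308 bp at chr4:137991779-138207086. The highest site, in exon 12 of 35 at chr4:138126038-138126576, had a peak in every list but GFP OE 2. A site in intron 17 of 32, at chr4:138170625-138171163, had a peak in all 8 lists, at percentiles from 89.4 to 96.0, and is the 1 site of the 77 in translation genes that did. Further sites lay in intron 5 of 32 (6 lists) and at exon 14 of 35 (5 lists, in 2 of which the annotation gives intron 12 of 32). The annotation counts the exons and the introns of this gene on different transcripts, so the numbers do not correspond.
Other sites were seen under some conditions only. The site at chr4:138177224-138177777, annotated as intron 21 of 32 in Ctrl 1 and Pi 1 and as exon 24 of 35 in Ctrl 2 and Pi 2, was present in the 4 unmodified lists, at percentiles from 52.9 to 74.2, and in no overexpression list. These coordinates are those of the Pi 1 peak. The Ctrl 2 and Pi 2 peaks start at chr4:138177714 and chr4:138177716 and overlap it only at its end. The site in the 3′ UTR, exon 35 of 35 at chr4:138206210-138206683, had peaks in GFP OE 2 and both THOC5 OE lists, at percentiles from 93.5 to 94.8, and in no unmodified list. A site in intron 10 of 32 was seen in both GFP OE lists and THOC5 OE 1. These sites were picked out after their values were seen, and no test was run on single sites.

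**Figure D4:**
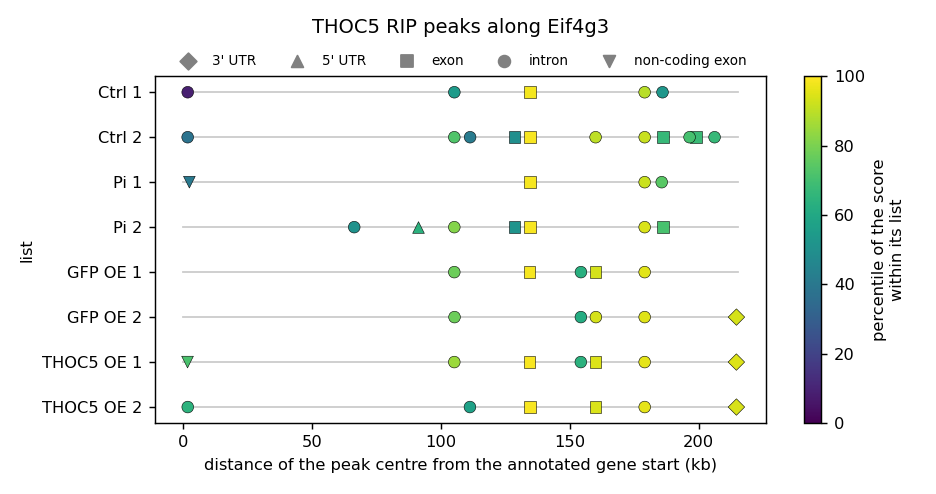
THOC5 RIP peaks along Eif4g3 in the 8 lists; the horizontal axis is the distance of the peak centre from the annotated gene start in kb, the shape gives the annotated part of the gene and the colour the percentile of the score within the list. The intronic site at 179.12 kb is present in every list, the exonic site at 134.53 kb in all but GFP OE 2, and the 3′ UTR site at 214.67 kb in GFP OE 2 and both THOC5 OE lists.

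Eif3a, the largest subunit of the eIF3 complex, was bound at a single site, in intron 3 of 21 at chr19:60781496-60781916. Ctrl 2 gave percentile 86.6, Pi 2 gave 89.6, GFP OE 1 gave 90.4 and THOC5 OE 2 gave 87.5, so that each condition had 1 list with a high peak and 1 with none. Eif2d, a factor that delivers tRNA without GTP, was bound in intron 2 of 14 at percentile 58.9 in Pi 1, at 57.4 in GFP OE 2 and at 56.3 in THOC5 OE 1. Eif3b, a core eIF3 subunit, was bound at 52.4 in GFP OE 1 and 57.2 in THOC5 OE 1. Eif4g1, the main paralogue of Eif4g3, is named after its values were seen: it had a single peak, in intron 1 of 31, at percentile 94.7 in THOC5 OE 1, and none in any other list. The paralogues thus differed, with 50 peaks in one and 1 in the other, over spans of 215308 and 20164 bp.

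Of the 8 kinases and binding proteins of initiation factors, 4 were bound. Eif2ak4, which encodes the kinase GCN2, was bound in all 8 lists, at percentile 77.5 and 87.9 in the Ctrl lists, 61.8 and 58.8 in the Pi lists, 87.0 and 84.8 in the GFP OE lists, and 89.3 and 87.3 in the THOC5 OE lists. The Pi lists were the lowest pair. Its scores were 152.5 and 184.2 in the Ctrl lists, 86.9 and 66.4 in the Pi lists, 196.1 and 190.3 in the GFP OE lists, and 232.9 and 222.3 in the THOC5 OE lists. The site behind this is in exon 9 of 39, at chr2:118422126-118422599, and had a peak in every Ctrl, GFP OE and THOC5 OE list and in neither Pi list. The Pi peaks of Eif2ak4 were intronic, and a site in intron 25 of 35 was shared by both Ctrl lists, both Pi lists and GFP OE 1. Here too exon and intron numbers are counted on different transcripts. With peaks in exons and UTRs only, Eif2ak4 was the 1 of 8 translation genes bound in each Ctrl list but in no Pi list, where 102 of 2208 genes (4.62%) were. On the same peaks it and Eif4ebp3 were the 2 of 7 bound in each GFP OE list but in no Pi list, against 72 of 1851 genes (3.89%). Both comparisons share the Pi lists.

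Eif4ebp3, a binding protein of the cap-binding factor eIF4E, had no peak in Ctrl or Pi and stood at percentile 73.7 and 71.7 in the GFP OE lists and 74.2 and 71.7 in the THOC5 OE lists. The overexpression lists were close together, with scores of 111.7, 116.7, 119.5 and 114.4, and did not overlap the unmodified lists. Of all 4051 bound genes, 44 (1.09%) were bound in the 4 overexpression lists and in no unmodified list, and Eif4ebp3 was the 1 translation gene of 39 among them. The peaks lay in the last exon, annotated as 3′ UTR, in 3 lists and in intron 2 of 2 in 1. The adjoining gene Ankhd1, which ends upstream of Eif4ebp3, was bound in all 8 lists, at percentiles from 94.1 to 96.2.

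Eif4enif1 encodes 4E-T, which carries eIF4E into the nucleus and into processing bodies. It was bound at percentile 54.7 in Ctrl 2, at 74.7 in Pi 1, at 83.8 in GFP OE 2, and at 78.2 and 84.2 in the THOC5 OE lists. Its 5′ UTR had a peak in both THOC5 OE lists, at percentiles of 51.2 and 54.4, and in no other list, a stretch that also lies within the span of Sfi1. With exons and UTRs only it was the 1 of 7 translation genes bound in each THOC5 OE list but in no GFP OE list, against 113 of 1507 genes (7.5%). Eif2ak1, the heme-regulated eIF2 kinase, was bound in intron 7 of 13 in GFP OE alone, weakly, at percentiles 15.6 and 4.94. Its scores were 20.6 and 16.1, against a lowest score of 29.0 in Ctrl 1 and 20.5 in Pi 1. The other lists reach below 16.1, and the part of the lowest scores in its absence was not tested.

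Of the synthetases, 6 of 17 cytosolic genes (35.3%) and 9 of 17 mitochondrial genes (52.9%) were bound, the latter the largest share of any role, with median spans of 26148 and 32933 bp. Lars, the cytosolic leucyl-tRNA synthetase, was bound in all 8 lists, at percentile 31.7 and 33.9 in the Ctrl lists, 68.2 and 59.7 in the Pi lists, 67.9 and 69.4 in the GFP OE lists, and 68.3 and 67.9 in the THOC5 OE lists. The Ctrl lists were the lowest, but no site was common to all lists: the 12 peaks fell on 7 sites, the most shared of which, in intron 19 of 31, was in Ctrl 1, GFP OE 1 and both THOC5 OE lists. Cars2, the mitochondrial cysteinyl-tRNA synthetase, was bound in all 8 lists with low scores, at percentile 2.77 and 12.0 in the Ctrl lists, 4.39 and 17.4 in the Pi lists, 23.7 and 24.1 in the GFP OE lists, and 38.4 and 40.8 in the THOC5 OE lists. Its peaks lay at 2 sites, in intron 7 of 14 (7 lists) and intron 4 of 14 (6 lists). The percentiles of the overexpression lists were all above those of the unmodified lists, while the scores ran from 24.3 to 33.4 in the unmodified lists and from 25.4 to 41.0 in the overexpression lists, and so overlapped.

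Lars2, the mitochondrial leucyl-tRNA synthetase, had its 2 high peaks in Pi, at percentiles 83.7 and 94.0 with scores of 167.5 and 270.1. Both lay at one place in the 3′ UTR, exon 22 of 22, at chr9:123461735-123462174, which the authors' annotation does not give as a repeat. THOC5 OE 1 had 4 other peaks in the gene, none above percentile 19.0, and the remaining lists had none. With exons and UTRs only, Lars2 was the 1 of 8 translation genes bound in each Pi list but in no Ctrl list, with a background of 2.76% (61 of 2208 genes), and the 1 of 7 bound in each Pi list but in no GFP OE list, with a background of 5.56% (103 of 1851 genes). The rRNA repeat peaks listed above, 17 and 28 in Pi and at most 1 elsewhere, moved with this result, and their part in it was not tested.

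Cars, the cytosolic cysteinyl enzyme, was bound at percentile 18.2 and 48.1 in Ctrl, 56.0 in Pi 2 and 64.0 in THOC5 OE 1. Vars, for valine, was bound at 56.7 in Ctrl 1 and 81.9 in Pi 1. Iars, for isoleucine, was bound at 70.7 in Pi 1. None of these 3 was bound in both lists of an overexpression condition.
Among mitochondrial enzymes, Aars2, for alanine, stood at 9.51 in Pi 1, 12.4 and 14.9 in GFP OE and 35.4 in THOC5 OE 2. Iars2 stood at 36.1 in GFP OE 2 and at 64.6 and 49.6 in THOC5 OE, and had no peak in an unmodified list.

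Of the 15 Eef genes 2 were bound, each in 1 list, and neither encodes an elongation factor itself. Eef2k, the kinase that inactivates eEF2, had 1 intronic peak at percentile 0.375 in Pi 1. The peak of the readthrough gene Eef1akmt4-ece2, at 11.6 in Ctrl 1, has Ece2 as its overlapping gene. Genes for the elongation factors proper, Eef1a1 and Eef2 among them, held no peak. The other 11 bound genes, 4 initiation factors and 7 synthetases, had best peaks between percentile 1.5 and 65.1 in 1 or 2 lists each.

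Most THOC5 peaks in translation genes lay in introns. Of the 166 peaks, 124 (74.7%) were intronic, against 58.7% for all protein-coding genes. The share in exons or UTRs was 18.8% and 24.1% in the Ctrl lists, 14.3% and 31.8% in the Pi lists, 27.8% and 20% in the GFP OE lists, and 26.9% and 36.8% in the THOC5 OE lists. For all other genes it was 46.0%, 44.6%, 40.6%, 42.5%, 41.6%, 35.1%, 37.7% and 36.4% in the same order. The translation genes were lower in 7 lists and about level in THOC5 OE 2, with a mean difference of -15.5 percentage points ± 9.11 (SD, n = 8 lists). These shares rest on 15 to 29 peaks a list. Eif4g3 alone held 50 of the 166 peaks and 21 of the 42 in exons or UTRs. The 16 peaks in ribosomal protein genes were all intronic. With the nearest gene of the annotation in place of the transcript the mean difference was -3.62. Of the 77 sites, 41 were seen in 1 list only, and for 48.2% of the peaks the annotation gives another gene as the nearest.

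The effect of osteogenic medium was compared between Pi and Ctrl by presence: a gene was called where each list of one condition had a peak in it and no list of the other did. Of 33 translation genes bound in these lists, 2 (6.06%), Lars2 and Rpl26, were bound in Pi and not in Ctrl, and the background is 3.25% (110 of 3384 genes). None was bound in Ctrl and not in Pi, with a background of 3.63% (123 genes). The exact permutation test of 2 against 2 lists cannot give a p below 0.333, so these calls carry no test. Leaving out a list loosens the rule on its side, so these counts can then only stay or rise. Without Pi replicate 1 the first count was 6, and without Pi replicate 2 it was 10. The second was 5 without Ctrl replicate 1, 4 without Ctrl replicate 2 and 1 without Pi replicate 2. The share of all genes under the looser rule was not computed.

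THOC5 overexpression was compared with GFP overexpression, both in osteogenic medium. None of 20 translation genes was bound in each THOC5 OE list but in no GFP OE list, where the background is 6.34% (159 of 2509 genes). In the other direction 1 gene (5.0%), Eif2ak1, was called, where the background is 1.2% (30 genes). With a list left out the rule is looser, and no share of all genes was computed for it. Without GFP OE replicate 2, 2 genes were bound in THOC5 OE alone and 4 in GFP OE alone. Without THOC5 OE replicate 2, 4 were bound in THOC5 OE alone and 2 in GFP OE alone, and without THOC5 OE replicate 1 the first count was 1.

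GFP OE was compared with Pi, the same medium without the GFP construct. Of 30 translation genes, 2 (6.67%), Eif2ak1 and Eif4ebp3, were bound in GFP OE and not in Pi, with a background of 3.65% (112 of 3065 genes). The Eif2ak1 scores, 20.6 and 16.1, stood near or below the lowest score of Pi 1, 20.5, but above that of Pi 2, 14.9. In Pi and not in GFP OE there were 3, Lars2, Rpl26 and Rps26, with a background of 6.49% (199 genes). The comparison shares the Pi lists with that of Pi and Ctrl, and the GFP OE lists with that of THOC5 OE and GFP OE. Under the looser rule that a left-out list leaves, the first count was 3 without Pi replicate 1 and 3 without GFP OE replicate 1. It was 5 without GFP OE replicate 2. The second was 8 without Pi replicate 1 and 10 without Pi replicate 2.

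Pooling both overexpression conditions gives the one split with 4 lists on each side. Of the 39 bound translation genes, 22 (56.4%) were bound in more unmodified and 9 (23.1%) in more overexpression lists, against 48.8% and 30.3% of all bound genes. A two-sided exact permutation test on the best percentile of each gene, with 0 for a gene without a peak, has 70 arrangements and a smallest p of 0.0286. Run on all 4051 bound genes with Benjamini-Hochberg adjustment, it called 0 (0.0%), and 290 genes (7.16%) had an unadjusted p under 0.05. With this smallest p, a gene could pass only if most of the bound genes stood at it. The 0 therefore does not show that no gene differed. Among the translation genes Rps26, Eif4ebp3 and Cars2 were at p = 0.0286 by this exact test, with an adjusted p of 0.399. Rps26 was bound in 4 of 4 unmodified lists, Eif4ebp3 in 4 of 4 overexpression lists, and Cars2 ranked higher in 4 of 4 overexpression lists. The lowest scores of the lists split the same way, and their part in the ranking of Cars2 was not tested. The split cannot be told apart from whatever else differed between the modified and unmodified cultures, and 2 of the 4 unmodified lists were in growth medium.

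Translation genes outside the naming rule were followed as lists of the pathway, beside the 18% of all protein-coding genes, with a median span of 17146 bp, that were bound. Of 23 genes of mTOR signalling, TOP binding and kinase control, 10 were bound (43.5%, median span 46294 bp). Mtor and Rptor, the kinase and its partner in the growth-control complex, were bound in all 8 lists, at percentiles from 43.4 to 76.5 and from 54.7 to 83.6. Larp1, the TOP-binding protein, was bound at 86.4 and 91.8 in Pi, at 78.4 in GFP OE 2 and in no Ctrl list. Gcn1, the activator of GCN2, was bound in both Ctrl lists, at 84.5 and 82.6, and in no other list, and Larp4b likewise, at 13.1 and 7.79. By the presence rule used above, Larp1 was thus the 1 gene of this list in Pi and not in Ctrl, with a background of 3.25%, and Gcn1 and Larp4b were the 2 in Ctrl and not in Pi, with a background of 3.63%. Rictor was bound in 7 lists.
Of 15 cap and poly(A) factors 4 were bound (26.7%, median span 18577 bp), with Gigyf2, a translational repressor, in all 8 lists. Of 8 termination and rescue genes 4 were bound (50%, median span 33655 bp), with Ltn1, the ubiquitin ligase of stalled ribosomes, in all 8 lists. Of 9 further synthetase genes 2 were bound (22.2%, median span 29676 bp): Eprs, for glutamate and proline, at 57.6 and 79.2 in the Ctrl lists, 40.3 and 81.0 in the Pi lists and 76.4 in THOC5 OE 1, and Sepsecs, of selenocysteine synthesis, at 26.5 and 30 in the Pi lists. Sepsecs was the 1 gene of this list in Pi and not in Ctrl, and both were in Pi and not in GFP OE, with backgrounds of 3.25% and 6.49%.

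Genes that build the ribosome were bound in a larger share than those for its proteins, with no test of the difference. Of 27 ribosome biogenesis genes 19 were bound (70.4%, median span 26550 bp), and Mdn1, Polr1a and Utp20, for a remodelling ATPase, the catalytic subunit of RNA polymerase I and a processing factor, were bound in all 8 lists. Mdn1 stood between percentile 78.7 and 89.1, Polr1a between 54.3 and 82.5, and Utp20 between 46.6 and 77.9. Nol9, a pre-rRNA kinase, was bound in the 4 unmodified lists, at 26.2, 50.4, 45.5 and 17.4, and in no overexpression list, a pattern found in 0.691% of all bound genes. Of 78 mitochondrial ribosomal protein genes 1 was bound (1.28%), Mrps26, at percentile 9.51 in Pi 1. Spans differ between these lists and were not matched.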

How the data were processed

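RNA recovered with THOC5 by a RIP kit was sequenced after rRNA depletion, per the labels' protocols. The submitters' processing notes name mm10 and the tools Bowtie2, SAMtools, MACS2 and FastQC, without roles. HOMER's annotatePeaks.pl had been run on mm10, per the file headers. The peak caller's settings and any use of inputs were not given in the sources used here. The deposited lists give 1 score per peak, and 28998 peaks in all, with their positions, and no reads or depth. Lists were joined to samples by the condition's abbreviation and number in the headers.

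Each peak's gene was the RefSeq transcript of its annotation, matched for 99.9% of transcripts to RefSeq GRCm38.p6. Promoter and intergenic peaks were left out, as were pseudogenes and chromosome Y. Sites join peaks that overlap by 1 base or more. Percentiles, counts, exact permutation tests and Benjamini-Hochberg adjustment (threshold 0.05) were computed in Python 3.11.15 with pandas 2.3.3, numpy 2.4.6 and scipy 1.17.1, and tested on simulated data. The genes and lists were chosen with earlier results of these data known. Named genes are those bound in all lists, those called by presence, and in each role the 4 bound in the most lists. Replicate numbers did not pair the lists: a check by replicate number gave 1 correlation for each pair of conditions, between -0.137 and 0.0717. The alternatives were a stricter score, lists of equal length, other gene assignments, exons and UTRs only, overlap of peaks, a wider naming rule, rRNA repeats left out, a replicate block and each list left out.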

Additional observations from a re-analysis of the deposited data

How the results depend on the processing

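The number of translation genes bound in all 8 lists was 4 and fell to 2 with peaks at or above each list's median score, with lists of equal length, and with the nearest gene, and to 1 in exons and UTRs only. The number bound in at least 1 list was 39, 21 with the stricter score and 10 in exons and UTRs. In exons and UTRs the share of bound genes was 0.407%. Both Ctrl and neither Pi list gave 1 gene with the nearest gene and 1 in exons and UTRs. Both Pi and neither Ctrl list gave 1 with lists of equal length, 1 with the nearest gene (Eif3j2) and 1 in exons and UTRs. Both GFP OE and neither THOC5 OE list gave 0 with the stricter score, equal lengths, the nearest gene, and exons and UTRs. Both GFP OE and neither Pi list gave 1 under the first 3 of these. Both Pi and neither GFP OE list gave 1 in exons and UTRs. Both THOC5 OE and neither GFP OE list gave 1 with the nearest gene (Eif4g3) and 1 in exons and UTRs. The difference in exon share was -3.62 with the nearest gene and could not be computed from exons and UTRs only. The causes were not tested, beyond the smaller number of peaks that some settings leave. Of 84 comparisons with a setting, 61 stayed and 23 moved, and 0 reversed. A reversal is a change of sign, which only the difference in exon share could show. The permutation count, 0 under every setting, is among those that stayed and could hardly have moved.

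Leaving out each list in turn gave 4 to 4 genes in all remaining lists, 33 to 39 in at least 1, 0 to 5 in Ctrl and not Pi, 2 to 10 in Pi and not Ctrl, 2 to 5 in GFP OE and not Pi, 3 to 10 in Pi and not GFP OE, 1 to 4 in GFP OE and not THOC5 OE, and 0 to 4 in THOC5 OE and not GFP OE. Except for the count in at least 1 list, these counts can only stay or rise when a list is left out, since the rule is then looser. The share of bound genes was 0.757% to 0.83%, the difference in exon share -17.8 to -13.8 points, and the permutation test called 0 each time. That 0 is no sign of stability, since a gene passes only if most bound genes stand at the smallest p. With the replicate number as a block, 0 genes passed and none could, since the smallest p by exact permutation is 0.0556. The smallest adjusted p there was 0.658. With presence in place of the percentile, an alternative chosen after seeing the data, 0 passed and the adjusted p was 1.0. Depth is unknown, so a missing peak does not show missing binding.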

Other observations

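Some peaks did not count as binding of a translation gene by the rules used. Eif2s3y, a chromosome Y gene for a subunit of eIF2, had weak intronic peaks in THOC5 OE 1 (percentile 22.0) and THOC5 OE 2 (21.9) and in no other list. Rps6kc1, a gene of the S6 kinase family that is no ribosomal protein, was bound in exon 11 of 15 in the second list of each condition, at percentile 71.9 for Ctrl, 74.8 for Pi, 79.4 for GFP OE and 77.8 for THOC5 OE. Rps6ka2, another S6 kinase, had weak 3′ UTR peaks in Ctrl 2 (10.9) and GFP OE 1 (5.73). Yars, the tyrosyl-tRNA synthetase and 1 of the 191 genes, had a single peak at its promoter, at percentile 3.46 in GFP OE 2, and promoter peaks were left out.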
